A study of Mus musculus with 2 samples.

Results

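Natural killer (NK) cells were taken as the barcodes with a transcript of an NK receptor and of an effector gene and none of T, B or macrophage lineage genes, and 271 of 13040 barcodes of adequate quality (14940 barcodes in all) met this rule. A barcode was chosen by at least 1 unique molecular identifier (UMI, 1 captured transcript) of Ncr1 or Klrb1c, at least 1 of Ccl5 or Gzma, and 0 of Cd3e, Cd3d, Cd79a and Csf1r, after keeping barcodes with at least 500 UMIs, at least 200 genes and under 10% mitochondrial UMIs. The data were 2 single-cell RNA-seq libraries of CD45+ leukocytes sorted from subcutaneous B16 melanomas, 1 library per treatment, and the question was what the antibody h219-LLG does to immune cells in the tumor. Both groups were Vav-cre human LAIR1 transgenic, LAIR1-/- C57bl/6j mice of 6 to 8 weeks, in which human LAIR1 is driven in blood cells and the mouse gene is lost. They received 500000 B16 cells and, from day 5 and every 4 days, 3 doses of 10 mg per kg of h219-LLG, an anti-LAIR1 antagonist with a silenced Fc part, or of the isotype control (Iso-ctrl, called control here), and tumors were collected on day 16. The number of mice behind each library was not given in the sources used here. With 1 library per group there was no measure of spread between animals and no test, so intervals cover counting error only and every difference is between these 2 libraries.

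NK cells are innate lymphocytes that kill stressed, infected or transformed cells by releasing perforin and granzymes, and that secrete interferon gamma and chemokines. They carry no antigen receptor made by gene rearrangement, and they are steered by the balance of activating receptors, such as NKp46 (Ncr1), NK1.1 (Klrb1c) and NKG2D (Klrk1), and inhibitory receptors for MHC class I, such as members of the Ly49 (Klra) family and NKG2A (Klrc1). LAIR1 is an inhibitory collagen receptor of leukocytes that signals through tyrosine phosphatases, NK cells being among the cells that carry it in humans.

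The rule kept 93 barcodes with h219-LLG and 178 with control. Of these, 64 and 88 held both Ncr1 and Klrb1c, 9 and 18 held Ncr1 alone, and 20 and 72 held Klrb1c alone. At the edge of the rule, 10 and 38 members had just 1 UMI of the pair, whereas 2 and 4 barcodes missed for want of Ccl5 and Gzma, 18 and 11 missed by 1 UMI of the lineage genes, and 54 and 56 had 2 or more of those UMIs. Ncr1 lay at chr7:4337724-4345164 on the plus strand and Klrb1c at chr6:128778485-128789215 on the minus strand of GRCm38, with Gzma at chr13:113093825-113100981 and Ccl5 at chr11:83525778-83530518, both minus. The promoter of Ncr1 is shown since the gene is used as an NK identifier, with matches to TGTGGT on either strand, a core recognised by RUNX factors, in capitals. The window runs from 250 bases before to 50 after the start in RefSeq on GRCm38.p6, chr7:4337474-4337773, plus strand, the matches begin at -185 and -50, and 16.8% of 32851 promoter windows held at least 1 match.
Ncr1 promoter: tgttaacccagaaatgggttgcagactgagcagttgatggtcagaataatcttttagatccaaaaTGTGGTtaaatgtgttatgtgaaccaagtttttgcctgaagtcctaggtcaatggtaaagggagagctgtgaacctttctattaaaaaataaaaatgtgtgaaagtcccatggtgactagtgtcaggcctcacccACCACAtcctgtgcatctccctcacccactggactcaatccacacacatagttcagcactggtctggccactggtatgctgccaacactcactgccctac

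Of the genes that identified the cells, Ncr1 was higher with h219-LLG and Klrb1c was near equal. For Ncr1 the h219-LLG library had 211 UMIs and the control library 260, or 423 and 247 counts per 1000000 NK UMIs (CPM), a ratio of 1.71 (95% interval 1.42 to 2.06). Klrb1c gave 263 and 526 UMIs, 527 and 500 CPM, a ratio of 1.05 (0.905 to 1.22). Ncr1 was detected in 78.5% of the h219-LLG cells and 59.6% of the control cells, while Klrb1c was detected in 90.3% and 89.9%. Both genes chose the members, so their values are a description.

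The cells matched their name in most NK markers that the rule did not use, though a few barcodes stood apart. Nkg7, a granule protein, was detected in 95.7% and 95.5% of NK cells with h219-LLG and control against 1.08% and 0.704% of B cells, Klrd1 (CD94) in 87.1% and 89.3% against 1.31% and 1.35%, and Prf1 (perforin) in 61.3% and 60.7% against 0.406% and 0.528%. Median depth was 4447 and 5422 UMIs in NK cells and 3506 and 4258.5 in B cells, and the B cell shares stand as the background from free RNA. Fcer1g was detected in 100% and 99.4% of NK cells, and Eomes, the NK transcription factor, in 62.4% and 70.8%. The least detected NK markers were Itga2, in 17.2% and 23.6%, and Klra8, in 33.3% and 40.4%. Other classes shared some of these markers. T cells with Ccl5 or Gzma had Nkg7 in 71.6% and 66.1% and Klrd1 in 56.5% and 47.0%. Prf1 was in 9.65% and 7.37% of them and Eomes in 17.7% and 12.4%. Csf1r-positive cells had Fcer1g in 99.3% and 97.0%. T and B cell markers were near 0: 6 of 10 T cell markers were in the gene list and summed to 5 and 22 UMIs, with Cd8a at 0 and 1 and Cd4 at 0 in both, and the B cell markers summed to 3 and 8. The macrophage markers summed to 84 and 42 UMIs, or 168 and 39.9 CPM, against 19672 and 13586 CPM in Csf1r-positive cells. Of the 84, 30 lay in 1 cell. The plasmacytoid dendritic cell markers summed to 70 and 187 UMIs in 39.8% and 44.9% of the cells. That was 140 and 178 CPM, against 160 and 204 CPM in T cells, with Siglech at 0 and 1 UMIs in NK cells. The neutrophil markers summed to 1646 UMIs with h219-LLG, 1642 of them in 1 cell, and to 2 with control. The 7 markers of ILC1, the innate lymphocytes nearest to NK cells, summed to 104 and 271 UMIs in 29.0% and 28.1% of the cells. That was 208 and 258 CPM, against 581 and 663 CPM in T cells. Il7r made up 57 and 145 of the NK UMIs, or 114 and 138 CPM, against 492 and 605 CPM in T cells. Of the others, Itga1, Tmem176a and Tmem176b were higher in NK than in T cells of both libraries. Cd200r1 and Cxcr6 were lower in both, and Tnfsf10 was higher in control alone. The markers of ILC2 and ILC3, other innate lymphocytes, summed to 41 and 128 UMIs, 38 and 121 of them Gata3. Gata3 was detected in 33.3% and 40.4% of the cells.

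NK UMIs summed to 499256 with h219-LLG and 1051882 with control, cells ranged from 1195 to 27395 and from 1111 to 26714 UMIs, and 13 barcode sequences occurred in both libraries, 0 of them NK. Among the h219-LLG cells, the deepest held 27395 UMIs, 5.49% of the total, of which 1436 were Gzmc. Another held 870 UMIs of S100a9, a neutrophil gene, and one more held 209 of Cd74, a gene of antigen-presenting cells, in 16470 UMIs. For several genes below, the count held by 1 cell or the ratio without the top cells is given.

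NK cells made up a smaller share of the h219-LLG library. They were 1.25% (1.01 to 1.53) of 7433 kept barcodes with h219-LLG and 3.17% (2.73 to 3.67) of 5607 with control, a ratio of 0.394 (0.307 to 0.505). The ratio was 0.412 (0.321 to 0.527) of barcodes without Cd79a and 0.389 (0.304 to 0.498) of barcodes with Cd3e or Cd3d plus NK cells. T cells (Cd3e or Cd3d, without the NK and other lineage genes) were 46.0% and 46.5%, B cells 29.8% and 30.4%, and Csf1r-positive cells 5.91% and 4.16%. Among NK cells plus T cells with Ccl5 or Gzma (effector T cells here), NK cells were 93 of 642 (14.5%) with h219-LLG and 178 of 680 (26.2%) with control, a ratio of 0.553 (0.441 to 0.694). In these T cells Prf1 was detected in 9.65% and 7.37%, Gzma in 15.3% and 19.3%, and Il7r in 80.3% and 84.7%. Their name is thus a label for the rule, and most entered by Ccl5. The gate depends on depth, which was lower with h219-LLG. With every kept barcode of at least 1000 UMIs thinned to 1000, the shares were 0.981% and 1.82%, a ratio of 0.539 (0.399 to 0.728). Thinning can also remove UMIs of the lineage genes and so admit barcodes outside the rule. Over the 13 settings tried, the ratio ranged from 0.368 to 0.539.

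**Figure D1:**
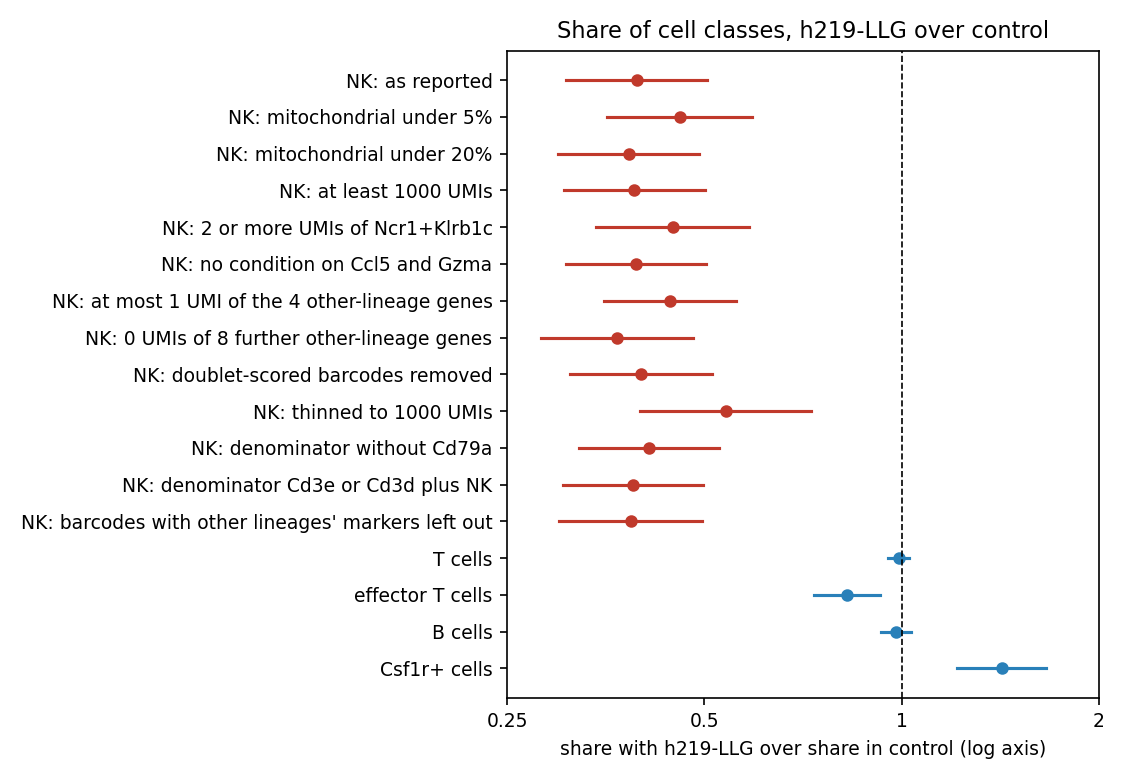
Ratio of the share of kept barcodes with h219-LLG over control (x axis, logarithmic; lines are 95% intervals for counting error) for NK cells under 13 settings and for T, effector T, B and Csf1r-positive cells. NK ratios sit between 0.368 and 0.539, with T cells at 0.990 and Csf1r-positive cells at 1.42.

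NK cells were set apart from effector T cells of the same tumors by receptors, adaptors, granule proteins and chemokines. Of 8830 genes measured (at least 50 UMIs over both classes and libraries, the rule's genes left out), 407 (4.61%) were at least 2-fold higher in NK cells in both libraries and 435 (4.93%) were at most 0.5-fold. Of 33 NK receptor genes 21 were higher and 6 lower, with a median log2 ratio of 2.66 with h219-LLG and 1.97 with control, against 0.15 and 0.16 over all genes. Of 22 granule genes 11 were higher and 0 lower (medians 1.22 and 1.23), and of 21 adaptors and proximal kinases 8 were higher and 2 lower. The effector T cells lacked Ncr1 and Klrb1c and had Ccl5 or Gzma by definition, so the classes differ by these genes and by what goes with them.

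The activating Ly49 receptor Klra8 (Ly49H) gave 180 UMIs in NK cells against 4 in effector T cells with h219-LLG and 476 against 10 with control, ratios of 389 and 197. Klra4 (Ly49D), also activating, had ratios of 551 and 130. Both pair with Tyrobp (DAP12), a chain with an ITAM motif, which was 21.3-fold and 17.6-fold higher. Fcer1g (the Fc receptor gamma chain), a separate ITAM chain, was 23.8-fold and 15.1-fold higher. Cd244 (2B4), a SLAM family receptor, had ratios of 44.8 and 32.3. The kinase Syk, which binds ITAMs, was 8.83-fold and 7.36-fold higher, whereas Lat, the T cell receptor adaptor, was at 0.115 and 0.135 of the effector T cell level. Among effectors, Prf1 was 19.2-fold and 24.6-fold higher and Gzmb 10.4-fold and 10.9-fold. The chemokine Xcl1 was 52.9-fold and 26.5-fold higher and Ccl3 19.0-fold and 9.68-fold. Cma1, a mast cell and NK protease gene, gave 57 and 101 UMIs in NK cells and 0 in effector T cells of either library.

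Of 28 transcription factor genes, 6 were higher in NK cells and 3 lower. Eomes was 6.86-fold higher with h219-LLG and 13.5-fold with control, Tbx21 (T-bet) 5.33-fold and 4.66-fold, and Irf8 16.8-fold and 17.1-fold. Bcl11b, which marks T cell commitment, was at 0.105 and 0.0126. The receptors higher in effector T cells included Ctla4, with 0 UMIs in NK cells with h219-LLG and a ratio of 0.0583 in control, and Slamf6 (0.207 and 0.206). Havcr2 passed the same limit at 0.376 and 0.0505, on too few NK UMIs for a comparison. Of 36 interferon-stimulated genes 0 were higher in NK cells and 7 were lower, among them Ifi27l2a at 0.0848 and 0.0161.

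**Figure D2:**
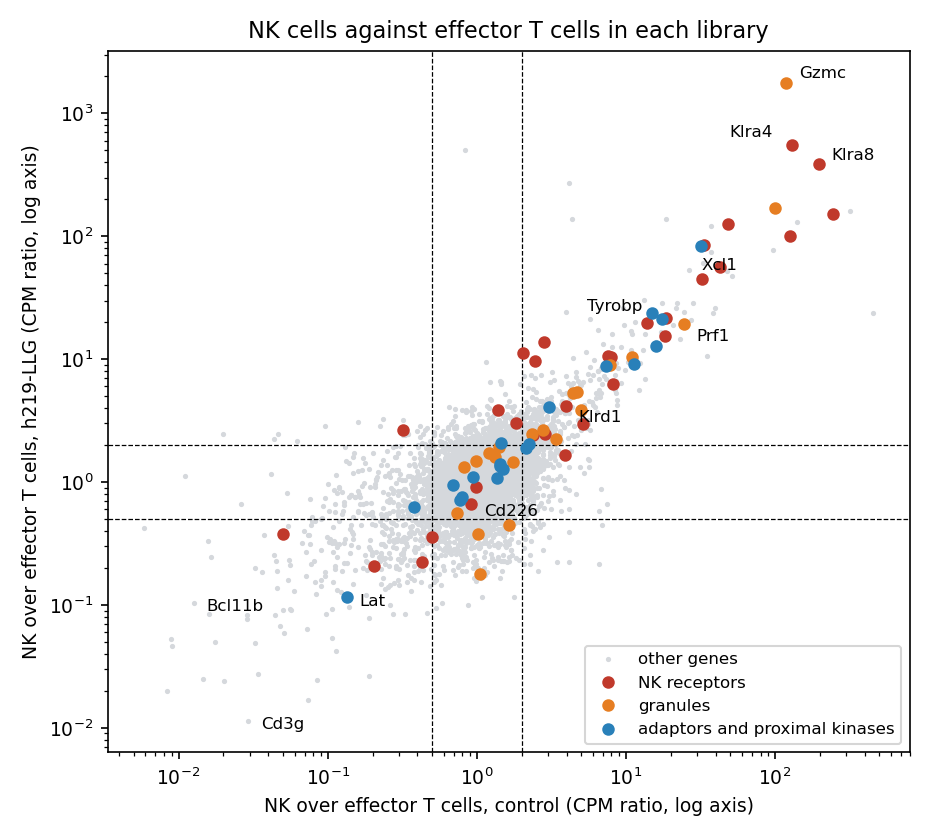
CPM in NK cells over CPM in effector T cells for each measured gene, control on the x axis and h219-LLG on the y axis (both logarithmic), with genes at 0 in either class not drawn and lines at 2 and 0.5. Klra8, at 197 and 389, lies far to the upper right, and Cd3g, at 0.0293 and 0.0115, to the lower left.

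Between treatments, a gene counted as higher or lower in NK cells where its CPM ratio of h219-LLG over control was at least 1.5 or at most 1/1.5, with at least 50 UMIs over both libraries. Of 4126 such genes 286 (6.93%) were higher and 359 (8.7%) lower, which is the background for every list below. Without the cell of each library that held most UMIs of a gene, 181 genes were higher and 432 lower of 3798 measured. Thus 29.5% of the differing genes were higher in place of 44.3%. The cell left out differs by gene and weighs more among 93 cells than among 178. Part of this change can thus follow from the cell numbers, and the part of single cells was not tested. Ratios in T and B cells are given beside the NK value for many of the genes, and the part of a library-wide shift in the NK value was not tested. Melanocyte markers summed to 906 CPM in control B cells against 13.7 with h219-LLG, and the deepest control B barcode held 286202 UMIs. The part of tumor RNA in the B cell ratios was not tested.

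The cytotoxic effectors Gzmb, Prf1 and Nkg7 had ratios between 1 and 1.5, and 3 rarer granule genes were past the limit. Of 26 genes 20 were measured, 3 were higher and 1 lower, and the median log2 ratio was 0.11, or 0.03 without the top cells, against 0.00 over all genes. Without Gzma, a gene of the rule, the median of the other 19 was 0.08. Gzmb (granzyme B) gave 418 and 679 UMIs, 837 and 646 CPM, a ratio of 1.30 (1.15 to 1.47). Prf1 gave 160 and 243 UMIs, 320.5 and 231 CPM, a ratio of 1.39 (1.13 to 1.70), and Nkg7 1036 and 1694 UMIs, a ratio of 1.29 (1.19 to 1.39). These stayed under the 1.5-fold limit, and the T cell ratio of Nkg7 was 1.70. Gzma (granzyme A), a gene of the rule, was at 6544 and 5428 CPM, while Ctsw, a cathepsin of cytotoxic cells, was at 377 and 472 CPM, a ratio of 0.797 (0.670 to 0.944). Stx11, a syntaxin of granule release, was the member past the lower limit, at 13 and 42 UMIs, 0.652 (0.321 to 1.24).

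The 3 granule genes past the upper limit were Gzmc, Gzmd and Serpinb9b, and each rested in good part on the deepest cell. Gzmc (chr14:56231441-56234656, minus strand) gave 1645 and 317 UMIs, a ratio of 10.9 (9.69 to 12.4), of which 1436 UMIs lay in that cell, and the ratio was 2.14 without the top cell of each library. Gzmd gave 119 UMIs, 104 of them in the same cell, and 0 in control. Serpinb9b, a serpin of the granzyme inhibitor family, gave 78 and 24 UMIs, a ratio of 6.85, with 39 in that cell, and was at 4.78 without the top cells, while T cells held 4 and 1 UMIs. Gzmc had a UMI in 6 of 93 and 13 of 178 cells.

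Within the cells, effectors spread over more than an order of magnitude in both libraries. Median Gzma per 10000 UMIs of a cell was 72.0 with h219-LLG and 46.5 with control, and median Ccl5, the chemokine RANTES, was 102 and 91.7. Median Gzmb was 3.11 and 2.30 and median Prf1 2.17 and 1.75. Xcl1 ran the other way, with a median of 2.74 and 6.94 and a UMI in 60.2% and 75.3% of the cells, though its summed CPM was near equal at 1664 and 1736 (ratio 0.959, 0.882 to 1.04).

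**Figure D3:**
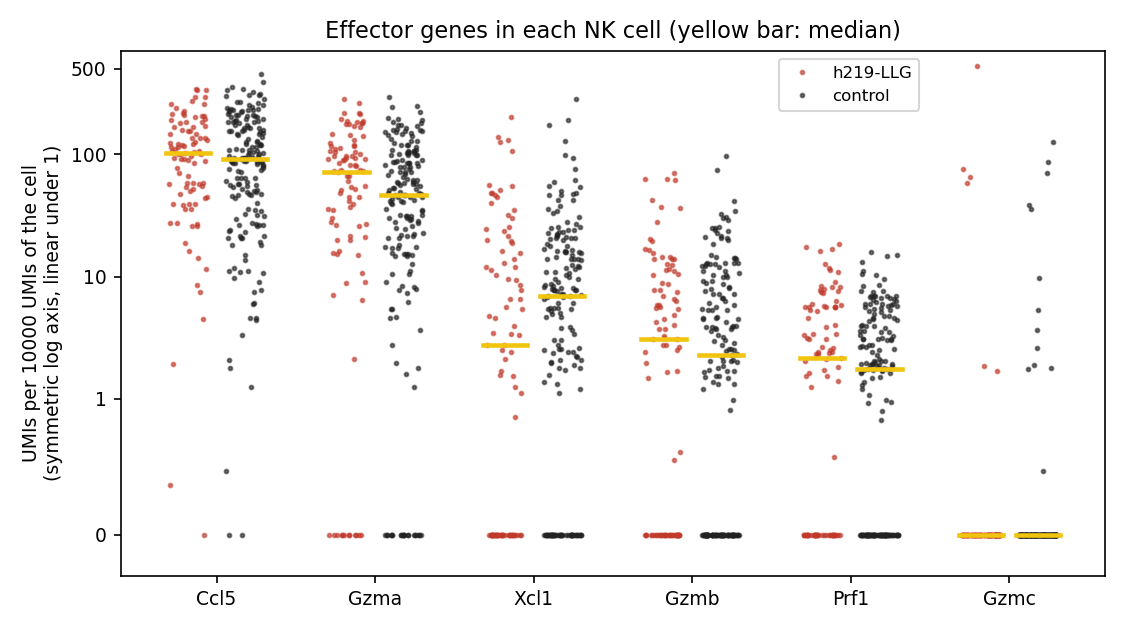
UMIs per 10000 UMIs of the cell (y axis, logarithmic above 1 and linear below) for 6 effector genes, 1 point per NK cell, with the median as a bar. Ccl5 and Gzma were present in most cells at medians of 102 and 91.7 and of 72.0 and 46.5, whereas Gzmc had a UMI in 6 and 13 cells, with a highest value of 524 with h219-LLG and 126 with control.

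NK receptors held near equal levels apart from a few members. Of 41 genes in the files 28 were measured, with 2 higher (Klrg1 and Ncr1), 1 lower and a median log2 ratio of 0.14 (0.09 without the top cells). Ncr1 and Klrb1c chose the cells, and over the other 26 genes 1 was higher, 1 lower and the median was 0.14. Klrg1, an inhibitory cadherin receptor of mature NK cells, gave 62 and 53 UMIs, 124 and 50.4 CPM, a ratio of 2.46 (1.68 to 3.63) with 22 UMIs in 1 cell and 1.92 without the top cells. In T cells the Klrg1 ratio was 0.369 and in effector T cells 0.448. Crtam, an adhesion receptor of activated killers, was the member past the lower limit, at 12 and 54 UMIs and a ratio of 0.468 (0.228 to 0.886), with 6 and 17 of the UMIs in 1 cell of each library.

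Of the other activating receptors, Klrk1 (NKG2D) gave 367 and 635 UMIs, 735 and 604 CPM, a ratio of 1.22 (1.07 to 1.39). Klrc2 (NKG2C) was at 1.17 (0.959 to 1.42), Cd244 at 1.10, Cd226 (DNAM-1) at 1.10 and Fcgr3 (CD16) at 0.981. Klrd1, which pairs with NKG2 chains, was at 1.31 (1.16 to 1.48) with 1.54 in T cells, and the inhibitory Klrc1 (NKG2A) at 0.930 (0.722 to 1.19). Counting error alone covered a ratio of 1 for most of these.

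The 6 measured Ly49 genes had ratios from 0.712 to 1.29, none past the limits. Klra4 gave 191 and 565 UMIs, 383 and 537 CPM, a ratio of 0.712 (0.601 to 0.841), and Klra8 180 and 476 UMIs, a ratio of 0.797 (0.667 to 0.948). Klra7 (Ly49G) was at 0.796 (0.627 to 1.00). Klra1 (Ly49A) was at 1.29 (0.824 to 2.01), Klra9 (Ly49I) at 1.23 (0.988 to 1.52) and Klra3 (Ly49C) at 1.14 (0.864 to 1.51). These genes are near-copies of each other, so reads may be split between them and single-member values are uncertain. Counting the 10 Klra genes of the files per cell, 20 of 93 cells (21.5%) and 38 of 178 (21.3%) had a UMI of none, 27 and 42 of exactly 1, 8 and 23 of 4, and 2 and 2 of 5.

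Checkpoint receptors were hardly detected in NK cells. Pdcd1 (PD-1) gave 2 and 0 UMIs, Tigit 3 and 11, Lag3 8 and 3, Havcr2 (TIM-3) 2 and 1, and Ctla4 0 and 19. At this depth no comparison of these genes was possible.

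The LAIR1 axis was measured only in part, since the gene list is of mouse genes and the human LAIR1 transgene was not measured here. The mouse gene Lair1 gave 3 UMIs with h219-LLG and 32 with control, 15 of the latter in 1 cell, in 3 of 93 and 8 of 178 NK cells, against 1.40% and 0.998% of B cells. Of 13 genes of the axis 4 were measured, with 1 higher and 0 lower. Ptpn6 (SHP-1), a phosphatase recruited by ITIM receptors, gave 62 and 73 UMIs, 124 and 69.4 CPM, a ratio of 1.79 (1.25 to 2.55), which was 1.74 without the top cells, with 0.986 in T and 0.860 in B cells. Ptpn11 (SHP-2) was at 0.857 (0.510 to 1.40), Csk, the inhibitory Src kinase, at 0.690 (0.465 to 1.00) and the lipid phosphatase Inpp5d (SHIP-1) at 0.678 (0.491 to 0.923). The ligand genes Col1a1, Col1a2 and Col3a1 had 0 UMIs in NK cells of both libraries.

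Adaptors and proximal kinases were near equal, with 1 of 19 measured genes higher, 0 lower and a median log2 ratio of 0.00. Sh2d1b1 (EAT-2), an adaptor of SLAM family receptors, gave 29 and 31 UMIs, a ratio of 1.97 (1.15 to 3.38). Cd247, the zeta chain, was at 1.49 (1.05 to 2.11) and Sh2d1a (SAP) at 1.43 (1.06 to 1.92), while Sh2d2a was at 0.707 (0.581 to 0.857) in NK and 0.707 in T cells.

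Of 25 transcription factor genes 0 were higher and 2 lower. Rora, a nuclear receptor, gave 47 and 206 UMIs, a ratio of 0.481 (0.342 to 0.663) with 0.391 in T cells, and Gata3 38 and 121 UMIs, 0.662 (0.447 to 0.960). Eomes and Tbx21, which drive the NK program, were at 0.760 (0.626 to 0.919) and 0.948 (0.652 to 1.36). Eomes thus lay below 1 in NK cells, inside the 1.5-fold limit, with a T cell ratio of 1.66.

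NK maturation runs from Cd27-positive to Itgam (CD11b)-positive cells, and most genes of the mature end had ratios between 1 and 1.5. Of 17 measured mature genes 15 were above 1, 1 (Klrg1) was past the limit, and the median log2 ratio was 0.31, or 0.26 without the top cells, against 0.13 in T cells. Itgam gave 90 and 127 UMIs, 180.3 and 121 CPM, a ratio of 1.49 (1.13 to 1.97), and Lgals1 (galectin-1) 1630 and 1146 CPM, 1.42 (1.30 to 1.56). Of 15 immature genes 1 was higher and 1 lower, with a median of -0.06. Emb, an adhesion protein, was the lower, at 139 and 521 UMIs and a ratio of 0.562 (0.463 to 0.679) with 0.536 in T cells, and the higher was Cxcr3 with 23 and 31 UMIs, 1.56 (0.870 to 2.77). Cd27 itself was at 100.2 and 105 CPM, a ratio of 0.958 (0.671 to 1.35).

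By cell, 17 of 93 h219-LLG cells (18.3%) and 39 of 178 control cells (21.9%) had Cd27 without Itgam, 16 (17.2%) and 18 (10.1%) had both, 31 (33.3%) and 56 (31.5%) had Itgam without Cd27, and 29 (31.2%) and 65 (36.5%) had neither. The interval of each share ratio held 1: cells with Itgam alone were at 1.06 (0.739 to 1.52) and, thinned to 2000 UMIs, at 1.43 (0.906 to 2.26), and cells with both were at 1.70 (0.911 to 3.18). A maturation difference in cell shares was therefore not detectable at this depth.

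Between these classes the summed maturation lists differed in the same direction in both libraries, though not each gene did. Over cells with Cd27 alone, cells with Itgam alone had 1.56 times (1.40 to 1.73) the mature genes, the 2 defining genes left out, with h219-LLG and 1.70 times (1.57 to 1.83) with control. The immature genes were at 0.428 (0.376 to 0.486) and 0.563 (0.520 to 0.610), and the summed Klra genes at 2.74 and 1.37. Of 17 mature genes 13 were above 1 in both libraries and 4 were on opposite sides of 1, namely Lgals1 (0.880 with h219-LLG and 1.94 with control), Ly6c2 (2.76 and 0.785), Dock2 (1.70 and 0.820) and S1pr1 (5 against 2 UMIs and 6 against 5). Of 17 immature genes 15 were below 1 in both, Lef1 was above 1 in both (1.57 and 1.02) and Ccr2 was on opposite sides (1.10 and 0.790). Cma1 gave 43 UMIs in Itgam cells against 3 in Cd27 cells with h219-LLG and 62 against 5 with control. Prf1 was 2.46-fold and 2.13-fold higher, Gzma 2.11-fold and 2.19-fold, and Zeb2, a factor of terminal maturation, 2.15-fold and 2.11-fold. Xcl1 was at 0.382 and 0.452 and Emb at 0.480 and 0.490, and Il7r, the interleukin-7 receptor, gave 0 UMIs in Itgam cells against 26 with h219-LLG and 8 against 55 with control.

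Among secreted factors, Ccl3 (MIP-1 alpha) was the 1 of 9 measured genes past the upper limit, and 0 were lower, Ccl5 being a gene of the rule. Ccl3 gave 349 and 460 UMIs, 699 and 437 CPM, a ratio of 1.60 (1.39 to 1.84), with 1.05 in T and 0.0739 in B cells. Its partner Ccl4 (MIP-1 beta) gave 677 and 1136 UMIs, a ratio of 1.26 (1.14 to 1.38), with 0.655 in T and 0.172 in B cells. Ifng (interferon gamma) gave 132 and 218 UMIs, 264 and 207 CPM, a ratio of 1.28 (1.02 to 1.59), with 0.832 in T cells. Ccl5, a gene of the rule, was at 9318 and 9749 CPM, Fasl at 0.813 (0.609 to 1.07) and Tgfb1 at 0.846 (0.657 to 1.08). Tnf, with 11 and 21 UMIs, and Csf2, with 11 and 19, were too sparse to compare.

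Of 20 cytokine receptor and signaling genes 1 was higher, Il2ra (CD25) at 29 and 37 UMIs and 1.65 (0.980 to 2.76), and 1 lower, Ifngr1. Ifngr1, the interferon gamma receptor, gave 377 and 1223 UMIs, 755 and 1163 CPM, a ratio of 0.649 (0.577 to 0.730), and its median per 10000 UMIs of a cell was 6.76 and 12. The T cell ratio was 0.594. The interleukin-18 receptor chains lay above 1, Il18rap at 1.38 (1.12 to 1.69) and Il18r1 at 1.26 (1.02 to 1.55).

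Of 22 chemokine receptor and adhesion genes 2 were higher and 1 lower. Cxcr4, which holds lymphocytes in CXCL12-rich niches, gave 65 and 403 UMIs, 130.2 and 383 CPM, a ratio of 0.340 (0.257 to 0.443). It was detected in 35 of 93 and 122 of 178 cells. Its ratio was 0.626 in T, 0.460 in effector T, 0.649 in B and 0.349 in Csf1r-positive cells. Cd48, the ligand of 2B4, gave 107 and 117 UMIs, 214 and 111 CPM, a ratio of 1.93 (1.47 to 2.53), with 1.81 in T and 2.30 in B cells. The other higher gene was Cxcr3.

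Heat shock genes had ratios below 1 in NK cells, and their median was below 0 in T and B cells too. Of 22 chaperone and co-chaperone genes 19 were measured, 10 were lower and 0 higher, all 19 ratios were below 1, and 15 intervals lay below 1. The median log2 ratio was -0.65 in NK cells, -0.43 in T cells and -0.67 in B cells. Hspa1b and Hspa1a, the stress-induced HSP70 genes, gave 8 and 98 UMIs and 6 and 65 UMIs, ratios of 0.172 (0.0722 to 0.352) and 0.194 (0.0689 to 0.447), with 55 and 26 of the control UMIs in 1 cell each. Without the top cell of each library they gave 6 and 43 and 1 and 39 UMIs, ratios of 0.295 and 0.0555. As near-identical copies they can exchange reads, so the split between them is uncertain. Hspa8, the constitutive HSP70, gave 544 and 1893 UMIs, 1090 and 1800 CPM, a ratio of 0.605 (0.549 to 0.666), with 0.627 in T cells. The HSP40 genes Dnajb1, with 37 and 159 UMIs, and Dnaja1, with 232 and 855, were at 0.490 (0.333 to 0.705) and 0.572 (0.492 to 0.662), and Hsph1 (HSP110) at 0.512 (0.320 to 0.792). Hspe1, the mitochondrial co-chaperone, had the highest ratio of the list, 0.971 (0.815 to 1.15).

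The promoters of 3 of these genes are shown because they carry matches to a heat shock element core, searched as GAANNTTC or TTCNNGAA and set in capitals. Such a match was in 15.1% of 32851 promoter windows, in 4 of 7 matched promoters of the lower heat shock genes and in 3 of 7 of those between the limits. The windows, from RefSeq on GRCm38.p6, are chr17:34959189-34959488 for Hspa1b, chr17:34972107-34972406 for Hspa1a and chr5:149636287-149636586 for Hsph1, all minus strand, with matches from -104, -104 and, in Hsph1, from -33, 36 and 41, the last pair overlapping.
Hspa1b promoter: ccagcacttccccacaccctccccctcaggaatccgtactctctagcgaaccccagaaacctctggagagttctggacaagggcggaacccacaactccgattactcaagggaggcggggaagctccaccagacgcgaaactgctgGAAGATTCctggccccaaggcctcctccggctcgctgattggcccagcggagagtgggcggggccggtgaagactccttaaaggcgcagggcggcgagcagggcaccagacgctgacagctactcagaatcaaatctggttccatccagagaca
Hspa1a promoter: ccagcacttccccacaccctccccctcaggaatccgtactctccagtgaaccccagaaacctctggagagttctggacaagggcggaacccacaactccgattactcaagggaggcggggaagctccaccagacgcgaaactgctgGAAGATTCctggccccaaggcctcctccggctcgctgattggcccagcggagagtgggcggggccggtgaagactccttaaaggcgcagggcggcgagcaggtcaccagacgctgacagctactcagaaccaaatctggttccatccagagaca
Hsph1 promoter: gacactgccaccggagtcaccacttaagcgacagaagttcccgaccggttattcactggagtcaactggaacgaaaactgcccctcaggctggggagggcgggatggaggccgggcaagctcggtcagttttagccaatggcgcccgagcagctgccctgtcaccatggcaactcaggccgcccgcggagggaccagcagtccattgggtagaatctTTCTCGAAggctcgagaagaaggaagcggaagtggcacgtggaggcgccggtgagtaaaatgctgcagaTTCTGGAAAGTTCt

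**Figure D4:**
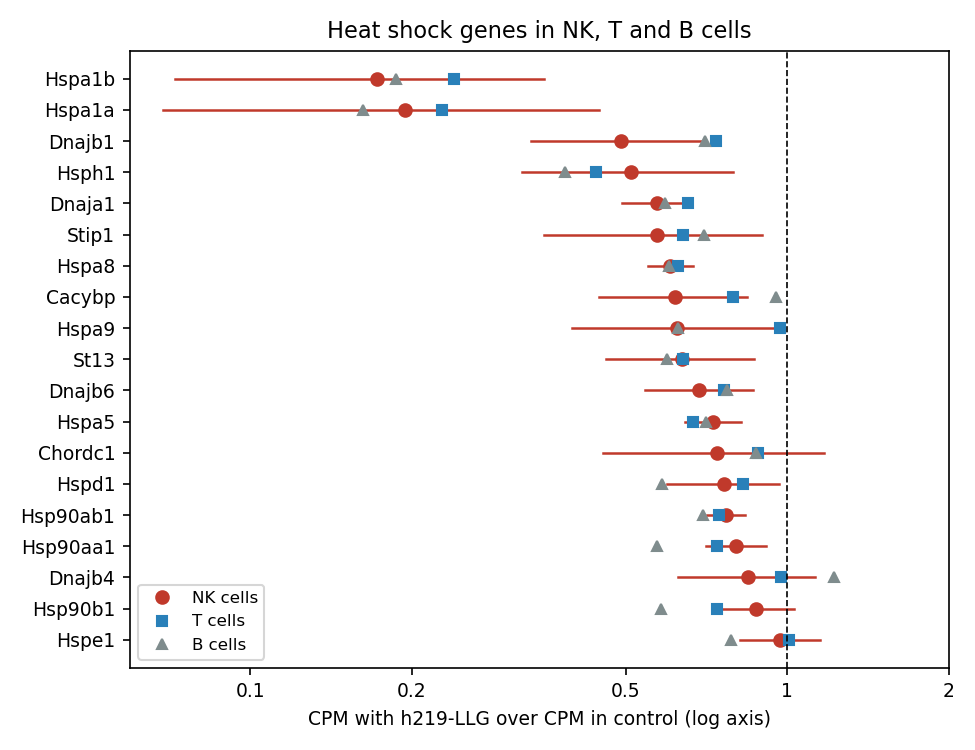
CPM with h219-LLG over CPM in control (x axis, logarithmic) for 19 heat shock genes in NK cells (circles, with 95% counting intervals), T cells (squares) and B cells (triangles). All 19 NK ratios lie left of 1, from 0.172 for Hspa1b to 0.971 for Hspe1.

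Some genes of recent stimulation were lower too. Of 31 immediate early genes 4 were lower and 1 higher, with a median log2 ratio of -0.19. Their median was -0.20 in T, -0.51 in effector T, -0.08 in B and -0.12 in Csf1r-positive cells. Of 19 activation and checkpoint genes 5 were lower and 1 higher (-0.40, and -0.63 in T cells). The orphan nuclear receptor Nr4a3 gave 61 and 298 UMIs, a ratio of 0.431 (0.322 to 0.570), with 0.420 in T and 0.350 in B cells. Nr4a2 gave 102 and 452 UMIs, a ratio of 0.475 (0.380 to 0.591), and Tnfrsf1b (TNF receptor 2) 21 and 125 UMIs, 0.354 (0.212 to 0.565), with 0.409 in T and 0.373 in B cells. Cd69, the early activation antigen, was the higher immediate early gene, at 143 and 198 UMIs, 286 and 188 CPM, a ratio of 1.52 (1.22 to 1.90), with 1.30 in T and 1.41 in B cells.

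The glycolysis list had a median above 0 in NK cells and below 0 in T and B cells. Of 14 glycolysis genes 4 were higher and 2 lower, with a median log2 ratio of 0.32 in NK, -0.23 in T and -0.92 in B cells. In Csf1r-positive cells the median was -0.16. Melanocyte markers in the control B cells limit the reading of the B cell values. The enzymes Aldoa (aldolase), with 188 and 224 UMIs, and Ldha (lactate dehydrogenase), with 215 and 259, were at 1.77 (1.45 to 2.16) and 1.75 (1.45 to 2.10), against 0.850 and 0.825 in T and 0.551 and 0.487 in B cells. Tpi1 and Hk1 were at 1.67 (1.28 to 2.18) and 1.72 (1.03 to 2.84). The glucose transporter Slc2a1 and the inducible hexokinase Hk2 were the lower genes, at 7 and 53 UMIs (0.278, 0.107 to 0.614) and 10 and 43 UMIs (0.490, 0.220 to 0.990). Of 43 respiratory chain genes 39 were above 1, 3 were higher (Ndufv3 1.62, Ndufa1 1.55 and Uqcrb 1.51) and 0 lower, with a median of 0.28 in NK and 0.18 in T cells. The difference of these medians between cell types was not tested.

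Cell cycle values depended on the measure. Of 7 measured cycling genes 3 were higher, and the median over the list was 0.43 (log2), which was -0.32 with cells thinned to 2000 UMIs. Mki67 (Ki-67) gave 38 and 46 UMIs, 21 of them in 1 cell of each library. Cells with at least 2 UMIs over the list were 37 of 93 (39.8%) and 110 of 178 (61.8%), a ratio of 0.644 (0.489 to 0.848), and thinned to 2000 UMIs 18.2% and 22.7%, a ratio of 0.802 (0.477 to 1.35), so no difference in cycling was detectable at matched depth.

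The remaining groups held few genes past the limits. The 19 MHC class I genes had 0 calls and a median log2 ratio of -0.01, and the 77 ribosomal protein genes 1 higher and -0.07. Of 18 interferon-stimulated genes 1 was higher and 3 lower, with Isg15 at 11 and 75 UMIs, 0.309 (0.148 to 0.585), and Ifit1 at 6 and 45 UMIs, 0.281, 26 of the control UMIs in 1 cell, and 1 and 19 UMIs without the top cells. Of 12 genes of ILC1 and tissue residence 2 were higher (Cd69 and Gzmc) and 0 lower, with a median of -0.11 that was above 0 under 3 other settings.

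**Figure D5:**
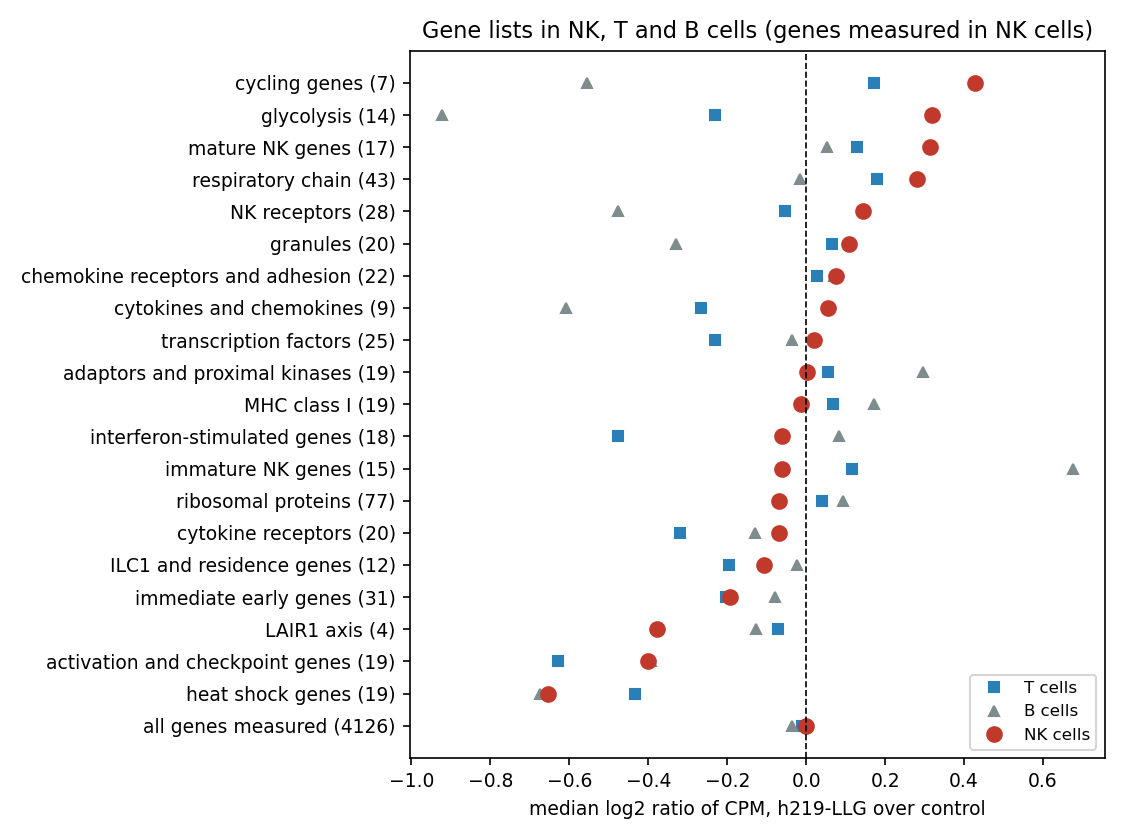
Median log2 ratio of h219-LLG over control of each gene list (x axis) in NK, T and B cells, with all measured genes for reference and genes of the rule kept in their lists. Heat shock genes lie lowest in NK cells at -0.65 and glycolysis genes lie at 0.32 in NK cells and -0.92 in B cells. Control B cells held melanocyte markers at 906 CPM, against 13.7 with h219-LLG.

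Across the genes of 100 or more UMIs, those far higher in other classes aside, Klf4 had the lowest ratio. This quiescence-associated transcription factor gave 30 and 246 UMIs, 60.1 and 234 CPM, a ratio of 0.257 (0.170 to 0.376), with 0.543 in T and 0.721 in B cells. It was followed by Amd1, a polyamine synthesis enzyme, at 19 and 143 UMIs and 0.280 (0.464 in T and 0.738 in B cells), and Ifrd1 at 94 and 698 UMIs and 0.284 (0.483 in T and 0.463 in B cells). Vegfa, the angiogenic factor, gave 38 and 249 UMIs, 76.1 and 237 CPM, a ratio of 0.322, with 0.373 in T and 0.212 in B cells, and Per1, a clock gene, 28 and 154 UMIs and 0.383 (0.625 in T and 0.596 in B cells). These 5 genes thus had ratios below 1 in T and B cells too.

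At the upper end, S100a9 with 873 and 1 UMIs and S100a8 with 696 and 1 came almost wholly from 1 cell, and without the top cells they had 3 and 0 and 1 and 0 UMIs. Gzmd and Gzmc also lay mostly in 1 cell. S100a4, a calcium-binding protein of motile cells, gave 300 and 231 UMIs, 601 and 220 CPM, a ratio of 2.74 (2.14 without the top cells), with 0.962 in T cells and 11.1 (7.66 to 16.8) in B cells. S100a6 gave 754 and 869 UMIs, a ratio of 1.83 (1.73 without the top cells), with 1.21 in T cells and 8.07 in B cells. Gm10076, the highest of the ranking without the top cells, gave 207 and 171 UMIs, a ratio of 2.55 (2.44 without them). Its ratio was 2.71 in T, 2.73 in B and 2.48 in Csf1r-positive cells. Of 2326 genes ranked, 30 had at least 25% of the UMIs of either library in 1 cell.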

How the data were processed

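The deposited files hold counts: whole UMI numbers per gene and barcode for 27998 mouse genes, produced by the authors. The submitters' processing notes name Cell Ranger 5.0.0 and the mm10 build. They list barcodes already called as cells. No cell type annotation was used. Groups came from the sample titles, and the antibody name from the study's text. UMIs of NK cells were summed per library and scaled to CPM, with exact Poisson intervals, exact binomial (Clopper-Pearson) intervals for shares and exact binomial-split intervals for ratios of counts, at 95%. Intervals cover counting error only. Pooling by sums gives deep cells more weight, and free RNA and doublets can add transcripts of other cells. Removing the highest simulated-doublet scores at 0.8% per 1000 barcodes took 442 and 252 barcodes, 1 and 2 of them NK cells. Genes named were those of the rule, members of the granule, receptor and LAIR1 lists, the 3 highest and 3 lowest of each other list, and the 10 highest and 10 lowest overall with at least 100 UMIs, and other names, including those in the comparison with effector T cells and in cell subsets, were chosen after their values were seen. The members and lists were chosen with earlier results of these data known. Coordinates are from GENCODE vM21 (215 of 215 genes matched by Ensembl identifier) and promoters from RefSeq GRCm38.p6, with 16 of 22 heat shock promoters matched. The ratio of counts, its interval and the 1.5-fold call were tested on simulated Poisson counts without spread between cells. The other steps were not tested in this way. Python 3.11.15, numpy 2.4.6, scipy 1.17.1, pandas 2.3.3, scikit-learn 1.9.0 and edgeR 4.0.16 (TMM factors only) were used.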

Additional observations from a re-analysis of the deposited data

Results flagged for a closer look

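Klrg1 stood out because its treatment ratio was above 1 in NK cells and below 1 in effector T cells. It was 2.46 in NK cells, from 62 UMIs in the h219-LLG library and 53 in the control library, and 0.448 in effector T cells. The difference between the classes was not tested, since each group had 1 library, and 22 of the 62 UMIs lay in 1 cell.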

How the results depend on the processing

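The lower NK share held its direction under all 12 alternatives, with ratios of 0.368 to 0.539, the last after thinning to 1000 UMIs. Counts of differing genes moved more than the share. In place of 286 higher and 359 lower of 4126 genes measured, they were 2963 and 2797 of 12206 with no minimum of UMIs. With a minimum of 100 they were 85 and 166 of 2351, and at 2-fold 51 and 93 of 4126. With cells thinned to 2000 UMIs they were 104 and 183 of 1622. Of these, 30 and 84 were among the genes of the unthinned comparison. With the top cell of each gene left out they were 181 and 432 of 3798. The number of genes measured thus differed between most settings. Without the cells carrying markers of other lineages, a setting chosen after seeing the data, the share ratio was 0.386 and 263 genes were higher and 327 lower of 3965 measured. Genes higher in NK than in effector T cells were 136 at 4-fold and 243 after thinning, in place of 407. Of list medians over the settings, 203 stayed within a fixed small distance of the main value, 32 moved further and 5 changed sign. Sign changes were counted only where the main median was not close to 0. The ILC1 list went from -0.11 to 0.0735 (thinned), 0.0306 (at least 2 UMIs of Ncr1 and Klrb1c) and 0.0695 (0 UMIs of 8 further lineage genes), and the median log2 ratio of cycling genes from 0.43 to -0.32 (thinned) and -0.964 (8 further genes). Under the last setting Hist1h2ap was at 0.291, Mki67 at 0.643 and Stmn1 at 0.454, in place of 3.64, 1.74 and 1.73. The cause was not tested. No paired analysis was possible because each group had 1 library, and no library could be left out. With 93 and 178 cells, genes under 50 UMIs were too sparse to compare.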

Other observations

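A small set of NK cells carried Gzmc, and these cells differed from the others, in part alike and in part in opposite directions in the 2 libraries. Cells with at least 2 UMIs of Gzmc, a limit chosen after the values were seen, were 4 of 93 (4.30%) with h219-LLG and 8 of 178 (4.49%) with control. Over the other NK cells of the same library, given in the order h219-LLG and control, their Gzma was at 0.210 and 0.125, Ccl5 at 0.199 and 0.249, Eomes at 0.307 and 0.297 and the summed Ly49 (Klra) genes at 0.249 and 0.403. Slamf7, a SLAM family receptor, was 5.13-fold and 4.44-fold higher, Crtam 7.32-fold and 10.4-fold and the inhibitory receptor Lilrb4a 9.05-fold and 6.45-fold. Cma1 had 0 UMIs in these cells, against 57 and 101 in the others. Of 18 mature genes 5, and of 18 immature genes 8, lay on opposite sides of 1 in the libraries. The summed mature genes were at 1.18 and 0.519 and the immature genes at 0.960 and 2.31. Gzmb was at 1.60 and 0.481, Prf1 at 1.36 and 0.381, Klrg1 at 4.95 and 0.290, Lgals1 at 2.02 and 0.570, Ccr2 at 2.46 and 0.405, Kit at 0.318 and 7.53 and Xcl1 at 0.912 and 5.2. Single cells weighed on these values. The deepest h219-LLG cell, at 27395 UMIs, held 18 UMIs of Gzmb, 21 of Prf1 and 22 of Klrg1. In control, 1 of the Gzmc cells held 282 UMIs of Xcl1. The Gzmc cells were deeper than the rest, with median UMIs of 13045 and 8136.5 against 4330 and 5273, and with so few cells the values describe those cells alone.

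Ccl1, a chemokine with CCR8 as receptor, gave 357 UMIs in NK cells with h219-LLG and 551 with control. In effector T cells it gave 131 and 5 UMIs, so it was 23.6-fold higher in NK cells with h219-LLG and, on 5 UMIs, 457-fold (195 to 1412) with control.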
